A study of Mus musculus with 32 samples.

Results

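Selenop encodes selenoprotein P, a secreted glycoprotein that carries selenium between tissues, and it was examined here beside 9 other genes named for selenium. The 10 genes were Selenop, Selenow, Selenom, Selenof, Selenbp1, Gpx1, Gpx3, Gpx4, Txnrd1 and Txnrd2, matched by symbol among the 53558 genes listed for each library. Selenop was selected on its measured level, which was higher after Lkb1 restoration in tumors with wild-type Trp53, and the others were taken for their family. Its values in that comparison, and those of the other 9 genes there, are therefore given as a description with no p-value.

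The libraries were bulk RNA-seq of neoplastic cells sorted from mouse lung tumors, 32 libraries in 5 groups. All mice carried an oncogenic allele that Cre switches on and Rosa26LSL-tdTomato, a red reporter that marks cells that have seen Cre. Tumors were started by lentiviral Cre given into the trachea, so the cell type of origin was set by which lung cells the virus entered rather than by a promoter. The KT group (4 libraries, 2 female and 2 male) had only those alleles, kept Lkb1, was untreated and received a lower virus dose than the Lkb1XTR mice. The non-restored group (10 libraries) was Lkb1XTR/XTR, in which Cre traps the gene that encodes the kinase LKB1 (symbol Stk11). Of these, 6 carried FLPo-ERT2, a tamoxifen-dependent recombinase, and had corn oil vehicle, while 4 lacked it and had tamoxifen. The restored group (7 libraries) was Lkb1XTR/XTR with FLPo-ERT2 and had tamoxifen, which removes the trap. The Trp53-deficient groups carried Trp53flox/flox as well. The non-restored one held 7 libraries that the titles tie to 4 animals, 2 of them on vehicle with FLPo-ERT2 and 2 on tamoxifen without it, and the libraries of 1 animal were summed. The Trp53-deficient restored group held 4 libraries. Treatment lasted 2 weeks with 4 mg doses of tamoxifen, and tumors grew for 24 to 27 weeks with wild-type Trp53 and for 16 to 19 weeks without it. Mouse age was not used. All restored libraries in both Trp53 states came from females, and the mice were of mixed C57BL/6J and 129 background. The study lists fewer mice than libraries for the non-restored and restored groups with wild-type Trp53, and the labels do not say which of these libraries share a mouse. They were tested as separate libraries, so p-values that use those groups may be too small, and they measure the spread between libraries.

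Selenoproteins contain selenocysteine, an amino acid that is inserted at a UGA codon, which otherwise stops translation. The insertion needs a hairpin in the 3′ untranslated region of the mRNA and a dedicated set of factors. Liver secretes most of the Selenop protein in plasma, and receptors such as Lrp8 (ApoER2) and Lrp2 (megalin) take it up in other organs. Most of the other selenoproteins are oxidoreductases of peroxides or thiols with selenocysteine at the active site.

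The coding sequences show how Selenop differs from the other members. In the GENCODE M21 annotation (GRCm38, the mm10 build) 24 genes have an annotated selenocysteine codon. Selenop has 10 of them, at codons 59, 259, 277, 318, 330, 352, 366, 368, 375 and 377 of 380, Dio2 has 2, and each of the other 22 has 1. Selenbp1, a selenium-binding protein, has none. The last 300 bases of the Selenop reading frame, which include its stop codon, and the stretches around the selenocysteine codons of the members are printed 5′ to 3′ on the strand of the gene, with each selenocysteine TGA in capitals.
Selenop codons 282 to 381, chr15:3279411-3279710, plus strand: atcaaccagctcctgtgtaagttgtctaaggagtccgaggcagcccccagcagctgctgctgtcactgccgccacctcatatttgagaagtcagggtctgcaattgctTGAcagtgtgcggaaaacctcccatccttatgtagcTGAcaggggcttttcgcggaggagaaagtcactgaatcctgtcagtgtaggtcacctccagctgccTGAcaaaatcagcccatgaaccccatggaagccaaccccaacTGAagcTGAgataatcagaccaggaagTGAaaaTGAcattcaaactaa
Selenop codons 51 to 67, chr15:3274824-3274874, plus strand: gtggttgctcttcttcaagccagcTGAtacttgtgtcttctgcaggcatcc
Selenow, chr7:15920449-15920472, minus strand: ggagctTGAggctataagcccaag
Selenom, chr11:3516261-3516296, plus strand: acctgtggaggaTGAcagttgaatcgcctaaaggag
Selenof, chr3:144590621-144590671, plus strand: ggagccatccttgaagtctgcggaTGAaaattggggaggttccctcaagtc
Gpx1, chr9:108339427-108339477, plus strand: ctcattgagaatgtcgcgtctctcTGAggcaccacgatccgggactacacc
Gpx3, chr11:54907232-54907279, plus strand: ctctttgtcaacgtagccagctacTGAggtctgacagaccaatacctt
Gpx4, chr10:80054713-80054763, plus strand: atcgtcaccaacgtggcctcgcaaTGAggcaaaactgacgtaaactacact
Txnrd1, chr10:82896013-82896045, plus strand: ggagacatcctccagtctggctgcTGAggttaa
Txnrd2, chr16:18477748-18477780, plus strand: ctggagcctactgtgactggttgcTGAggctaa
In Txnrd1 and Txnrd2 the selenocysteine codon is the next to last codon before the stop codon taa, and in the Selenop stretch 7 such codons lie within the printed 300 bases.

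The libraries held between 1302482 and 5943951 expected counts, so a count of 3 corresponded to 0.505 to 2.30 CPM, the count scaled by library size. Stk11 checked the labels: it was at 0 to 1.07 CPM in both non-restored groups and at 8.38 to 27.3 CPM in the KT and restored groups. Of the markers of other cell types, lymphocyte markers summed to at most 4.71 CPM and red cell markers to at most 4.49 CPM in any library or animal. Non-restored replicate 8, from the tamoxifen arm, and Trp53-deficient non-restored animal 4 stood apart. Their alveolar type II markers summed to 6460 and 8220 CPM, the lowest of their groups, and differences that changed their call or moved by over 1.5 times without them are given both ways where a gene is named.

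Selenop (chr15:3268547-3280508, plus strand) was high in KT tumors, low in non-restored tumors and high again in restored tumors. In KT replicates 1 to 4 its level was 676, 1168, 1143 and 982 CPM. Over the 10 non-restored libraries the lowest level was 154, the median 326 and the highest 464 CPM. Over the 7 restored libraries the lowest was 782, the median 840 and the highest 1182 CPM. No non-restored library reached the lowest KT or restored library, and the KT and restored ranges overlapped. Of all genes tested, 0.372% were likewise higher in restored than non-restored without overlap, and 2.46% lower in non-restored than KT.

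In the Trp53-deficient tumors the same order held at lower levels. The non-restored animals 1 to 4 had 284, 386, 289 and 132 CPM. The restored libraries 1 to 4 had 528, 510, 557 and 452 CPM. The 2 groups did not overlap, as for 1.86% of genes tested with the restored group higher. The restored Trp53-deficient libraries lay below every restored library with wild-type Trp53, as for 1.66% of genes tested. The lowest of these Trp53-deficient libraries lay just under the highest non-restored library with wild-type Trp53.

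Ordered by mean, Selenop was highest in KT (992 ± 226 CPM, SD, n = 4), then restored (907 ± 147, n = 7), Trp53-deficient restored (512 ± 44.3, n = 4), non-restored (334 ± 91.5, n = 10) and Trp53-deficient non-restored (273 ± 105, n = 4). Neighbours in this order overlapped, apart from restored and Trp53-deficient restored. On the TPM scale, which divides by transcript length, the group means were 676 ± 153, 641 ± 85.8, 375 ± 43.1, 255 ± 70.5 and 199 ± 84.5 in the same order. In bulk samples, fewer cells that express a gene and less RNA per cell cannot be told apart.

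**Figure D1:**
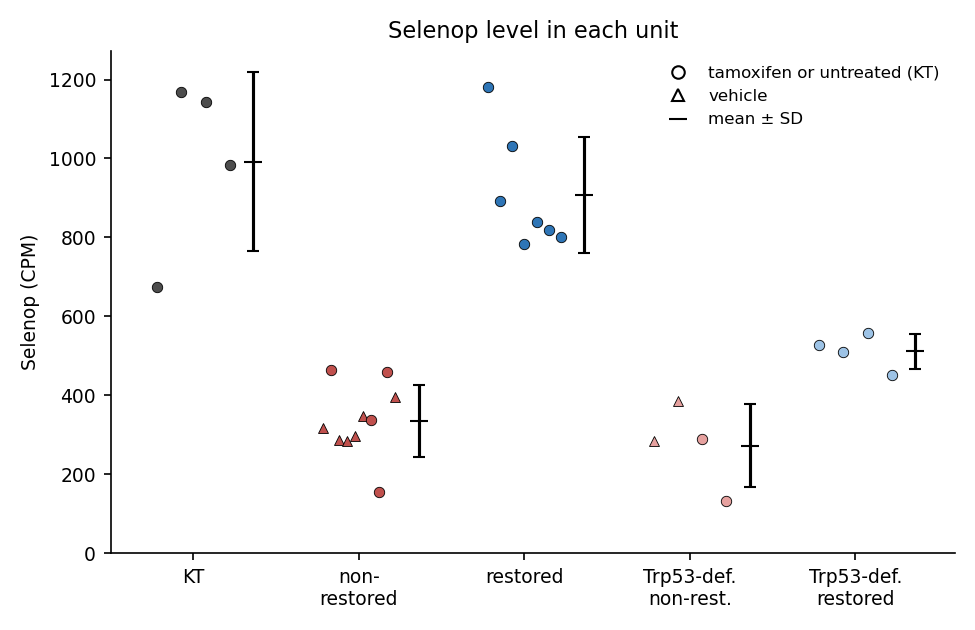
Selenop level (CPM, linear axis from 0) in each library or animal of the 5 groups, with the group mean and SD. The 10 non-restored points lie between 154 and 464 CPM and the 7 restored points between 782 and 1182 CPM, while the Trp53-deficient groups lie at 132 to 386 and 452 to 557 CPM.

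The first question was how Selenop differed with Lkb1 status in the presence of Trp53. In the comparison that chose the gene, restored over non-restored, the log2 fold change was 1.43 (SE 0.169, 95% interval 1.08 to 1.78), a 2.70-fold higher level. In that comparison 1.87% of the 12636 genes tested were called at an adjusted p under 0.05, and 0.973% were called higher. Non-restored tumors were below KT tumors by a log2 fold change of -1.57 (SE 0.193, 95% interval -1.97 to -1.17), with an adjusted p of 3.22e-05 by edgeR's quasi-likelihood test. This was a 2.97-fold lower level, in a comparison where 5.86% of all genes tested were called, 3.48% of all were called lower, and 2.46% of all had non-overlapping groups with the non-restored group lower. An exact two-sided permutation test of 10 against 4 libraries gave p = 0.000999, the smallest that 1001 splits allow, and 0.0040 after Benjamini-Hochberg adjustment over the 4 permutation tests made. It shuffled libraries, and some non-restored libraries may share a mouse, so this p may be too small. Without non-restored replicate 8 the difference was -1.49 with an edgeR adjusted p of 3.56e-06. The 2 comparisons share the non-restored libraries, so they are not independent of each other. The Selenop levels of those libraries also helped to choose the gene, so its p-values against KT may be too small.

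Restored tumors did not pass the test against KT tumors, where 0.459% of genes were called. The log2 fold change was -0.14 (SE 0.216, 95% interval -0.59 to 0.31, edgeR adjusted p = 0.887), and the exact permutation p was 0.521 (0.695 adjusted). The interval allows a restored level between 0.67 and 1.24 times that of KT.

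The second question was whether the difference was also present without Trp53, in libraries other than those of the first question. The members were chosen with earlier results of these data known, so these libraries may not be independent of the choice. Selenop was 1.90-fold higher in the restored than the non-restored Trp53-deficient tumors, a log2 fold change of 0.93 (SE 0.278, 95% interval 0.31 to 1.55). It did not pass adjustment over all genes (unadjusted p = 0.0078 and adjusted p = 0.804, edgeR), and neither did any of the 12516 genes tested (percentage called 0). Of these genes, 748 (5.98%) had an unadjusted p under 0.05 in edgeR, and DESeq2, which left fewer genes in the adjustment, called 23 genes (0.31%), Selenop not among them (adjusted p = 0.169). The exact permutation p was 0.0286, the smallest that 4 against 4 allows, and 0.0571 after adjustment over the 4 tests. Every restored library was above every non-restored animal, as was the case for 1.86% of genes. Without animal 4 the log2 fold change was 0.67 with an edgeR adjusted p of 0.999.

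The effect of restoration was not shown to differ with Trp53. Its log2 fold change was smaller by 0.54 in Trp53-deficient tumors as a point estimate (difference -0.54, SE 0.324, 95% interval -1.20 to 0.13, edgeR unadjusted p = 0.111 and adjusted p = 1.00), and 0 of 13706 genes passed that test. Of these, 422 (3.08%) had an unadjusted p under 0.05, and DESeq2 called 0 as well. Part of that difference is the comparison that chose the gene. Among restored tumors the Trp53-deficient level was lower by -0.82 (SE 0.243, 95% interval -1.32 to -0.32, edgeR unadjusted p = 0.0024 and adjusted p = 0.132), where 0.372% of genes were called. The groups did not overlap, as for 1.66% of genes with the Trp53-deficient group lower, and the difference passed the threshold with DESeq2 (-0.82, adjusted p = 0.0487), which called 1.58% of genes. Among non-restored tumors the difference was -0.28 (SE 0.226, 95% interval -0.75 to 0.18, edgeR adjusted p = 0.514), where 0.584% of genes were called. Trp53 status and time since tumor initiation cannot be told apart in these comparisons.

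Tamoxifen was given to every restored library, so the non-restored arms were compared. Selenop was at 354 ± 145 CPM in the tamoxifen arm (n = 4) and at 321 ± 43.5 CPM in the vehicle arm (n = 6). The log2 fold change was 0.14 (SE 0.226, 95% interval -0.32 to 0.61, edgeR adjusted p = 1.00), where 0.00791% of genes were called, and the exact permutation p was 0.967. The sign turned without non-restored replicate 2 (-0.01) or replicate 9 (-0.02), with females only (-0.32) and with limma on log2(TPM + 1) (-0.04), none of them past the threshold. FLPo-ERT2 and the agent go together in the arms and cannot be told apart.

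The glutathione peroxidases among the members use glutathione to reduce peroxides. Gpx1, the abundant cytosolic enzyme, had 209 to 457 CPM across all libraries and animals, with means of 348 ± 55.3 in KT, 297 ± 73.7 in non-restored and 325 ± 43.5 in restored tumors. Gpx4, which reduces phospholipid hydroperoxides in membranes and restrains ferroptosis, had group means of 42.4 to 45.0 CPM. For both genes, the groups overlapped in all 7 pairwise comparisons of groups or arms.

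Gpx3, the secreted plasma enzyme, varied within groups far more than between them. It had 17.8, 16.6, 1.63 and 22.4 CPM in KT replicates 1 to 4. In the non-restored group the lowest was 0.454, the median 20.6 and the highest 87.2 CPM. In the restored group the lowest was 0.987, the median 17.4 and the highest 36.6 CPM. The Trp53-deficient non-restored animals had 16.1, 62.6, 52.7 and 1.82 CPM, and the restored libraries 70.3, 21.6, 19.7 and 0.444 CPM. Each group thus held at least 1 library or animal under 2 CPM and another over 15 CPM, and the 95% interval of non-restored against KT ran from -1.04 to 2.84 (log2 fold change 0.90, edgeR adjusted p = 0.627).

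The thioredoxin reductases regenerate thioredoxin, Txnrd1 in the cytosol and Txnrd2 in mitochondria. Txnrd1 had 91.0, 91.0, 88.4 and 95.5 CPM in the Trp53-deficient non-restored animals. The restored Trp53-deficient libraries had 79.9, 74.9, 67.9 and 71.5 CPM. The 2 groups did not overlap, as for 1.76% of genes with restored lower, and the log2 fold change of -0.29 (SE 0.123, unadjusted p = 0.043) did not pass edgeR's adjustment (adjusted p = 0.804). With wild-type Trp53, restored and non-restored Txnrd1 overlapped (80.9 ± 20.2 and 88.1 ± 12.9 CPM, log2 fold change -0.13, 95% interval -0.40 to 0.13). Txnrd2 was low throughout, with group means of 4.37 to 8.17 CPM. It was -0.87 lower on the log2 scale in Trp53-deficient than wild-type non-restored tumors (edgeR unadjusted p = 0.007 and adjusted p = 0.139), and passed the threshold without non-restored replicate 8 (-0.95, adjusted p = 0.0368), where 10.8% of genes did.

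The small thioredoxin-like selenoproteins Selenof and Selenow were not called by edgeR or DESeq2 in the comparisons tested. Selenof, a resident of the endoplasmic reticulum that takes part in glycoprotein quality control, had group means of 381 to 447 CPM. Selenow, a small redox protein abundant in muscle, had 17.7 to 36.6 CPM in all libraries and animals. Selenom, another protein of the endoplasmic reticulum, had 0 to 1.63 CPM, at most 4 counts in any library or animal, and did not pass the filter on low counts. A count of 0 in these libraries allows up to 0.505 to 2.30 CPM, counting error only.

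Selenbp1, which binds selenium but has no selenocysteine, had group means of 464 to 538 CPM. In the non-restored group its mean was lower in the tamoxifen arm, where libraries 2, 7, 8 and 9 had 369, 361, 129 and 394 CPM. The vehicle libraries had a lowest level of 327, a median of 609 and a highest of 701 CPM. The arms overlapped, since the lowest vehicle library lay under the highest tamoxifen library. The log2 fold change, tamoxifen over vehicle, was -0.87 (SE 0.251, unadjusted p = 0.0023) and did not pass edgeR's adjustment (adjusted p = 0.925). Without replicate 8, the lowest library of the group, it was -0.62 (edgeR adjusted p = 0.920). With the replicate number as a covariate it was -0.41 (SE 0.286). The Selenbp1 log2 fold change of restored over non-restored tumors was 0.07 with both arms, 0.65 against the tamoxifen arm alone and -0.22 against the vehicle arm alone.

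**Figure D2:**
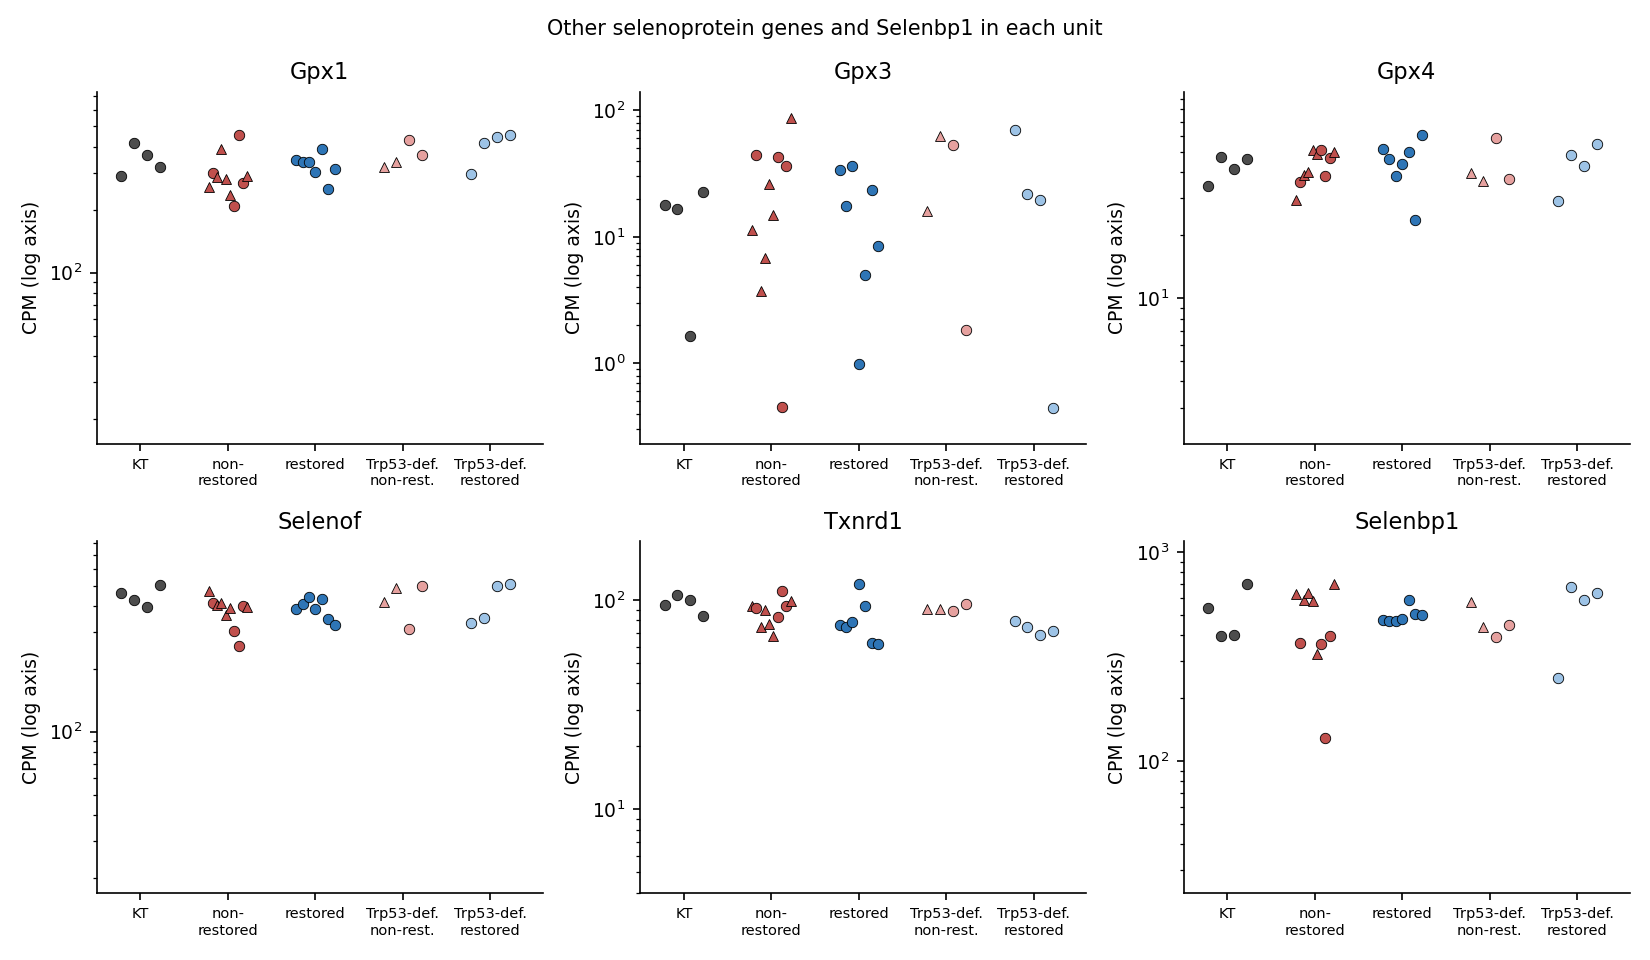
Levels of 6 other members (CPM, log axis) in each library or animal of the 5 groups, with circles for untreated or tamoxifen and triangles for vehicle. Gpx3 spreads from 0.444 to 87.2 CPM with every group wide. In the 7 comparisons the ranges of all 6 genes overlap, apart from those of Txnrd1 in Trp53-deficient restored and non-restored tumors.

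Of the 10 members, 9 were tested and Selenom was not. The median log2 fold change of the members tested was 0.05 when restored tumors were set against non-restored ones and -0.12 for non-restored against KT, while over all genes it was -0.01 and 0.03. In the restored to non-restored comparison the intervals of the other 8 members tested all included 0. The widest was that of Gpx3 (-0.64, 95% interval -2.15 to 0.88) and the narrowest that of Selenof (0.02, -0.20 to 0.24).

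The wider family was the list of 24 selenoprotein genes, of which 19 were tested and Selenom, Selenov, Dio1, Dio2 and Dio3 were not. Selenop was the 1 gene called in non-restored against KT by edgeR (1 of 19, beside 5.86% of all genes) and by DESeq2 (1 of 19, beside 8.57%). No member of the list was called in restored against KT (1 at an unadjusted p under 0.05 in edgeR, beside 10.5% of all genes, and 0 called by DESeq2, beside 1.33%) or in the Trp53-deficient restored against non-restored tumors (4 at an unadjusted p under 0.05, beside 5.98%, and 0 called by DESeq2, beside 0.31%). Without Selenop the list's median log2 fold change was 0.03 when restored tumors were set against non-restored ones, -0.03 for non-restored against KT, 0.01 for restored against KT and -0.07 for the Trp53-deficient comparison. Between the Trp53 states 0 were called by edgeR, with 6 of 19 at an unadjusted p under 0.05 in non-restored (17.7% of all genes) and 3 in restored tumors (15.5%). DESeq2 called 2 of them in the non-restored tumors, Selenok (0.51 in edgeR, adjusted p = 0.0827) and Selenon (-1.18, adjusted p = 0.112), beside 3.39% of all genes, and 1 in the restored tumors, Selenop, beside 1.58%. Without non-restored replicate 8, edgeR called 5 of the 19 between the Trp53 states of non-restored tumors, beside 10.8% of all genes. These were Selenok (0.52), Selenoi (1.06) and Gpx2 (2.22), higher in the Trp53-deficient tumors, and Selenon (-1.32) and Txnrd2 (-0.95), lower. Over the 18 genes other than Selenop, the median absolute log2 fold change in restored against non-restored, non-restored against KT, restored against KT and the Trp53-deficient comparison was 0.13, 0.14, 0.13 and 0.17, beside 0.20, 0.29, 0.23 and 0.23 over all genes.

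The selenoproteins nearest to a call in non-restored against KT were Txnrd3, a reductase best known from testis, and Selenoh, a nuclear protein. Txnrd3 was at 25.1 CPM in non-restored and 44.2 CPM in KT tumors (log2 fold change -0.81, edgeR adjusted p = 0.0660). Its groups did not overlap, as for 2.46% of all genes with the non-restored group lower. It passed the threshold in 4 of the 29 other settings and sample sets tried. Selenoh was at 41.4 and 53.2 CPM (-0.36, adjusted p = 0.126, edgeR). Gpx2, the gastrointestinal glutathione peroxidase, ranged from 1.91 to 256 CPM, with its highest level in non-restored replicate 8. Its mean was 39.8 ± 77.0 CPM in non-restored and 9.42 CPM in KT tumors (2.09 on the log2 scale, edgeR adjusted p = 0.279). Without that library the non-restored mean was 15.8 ± 13.1 CPM (n = 9) and the difference 0.73 (edgeR adjusted p = 0.600).

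**Figure D3:**
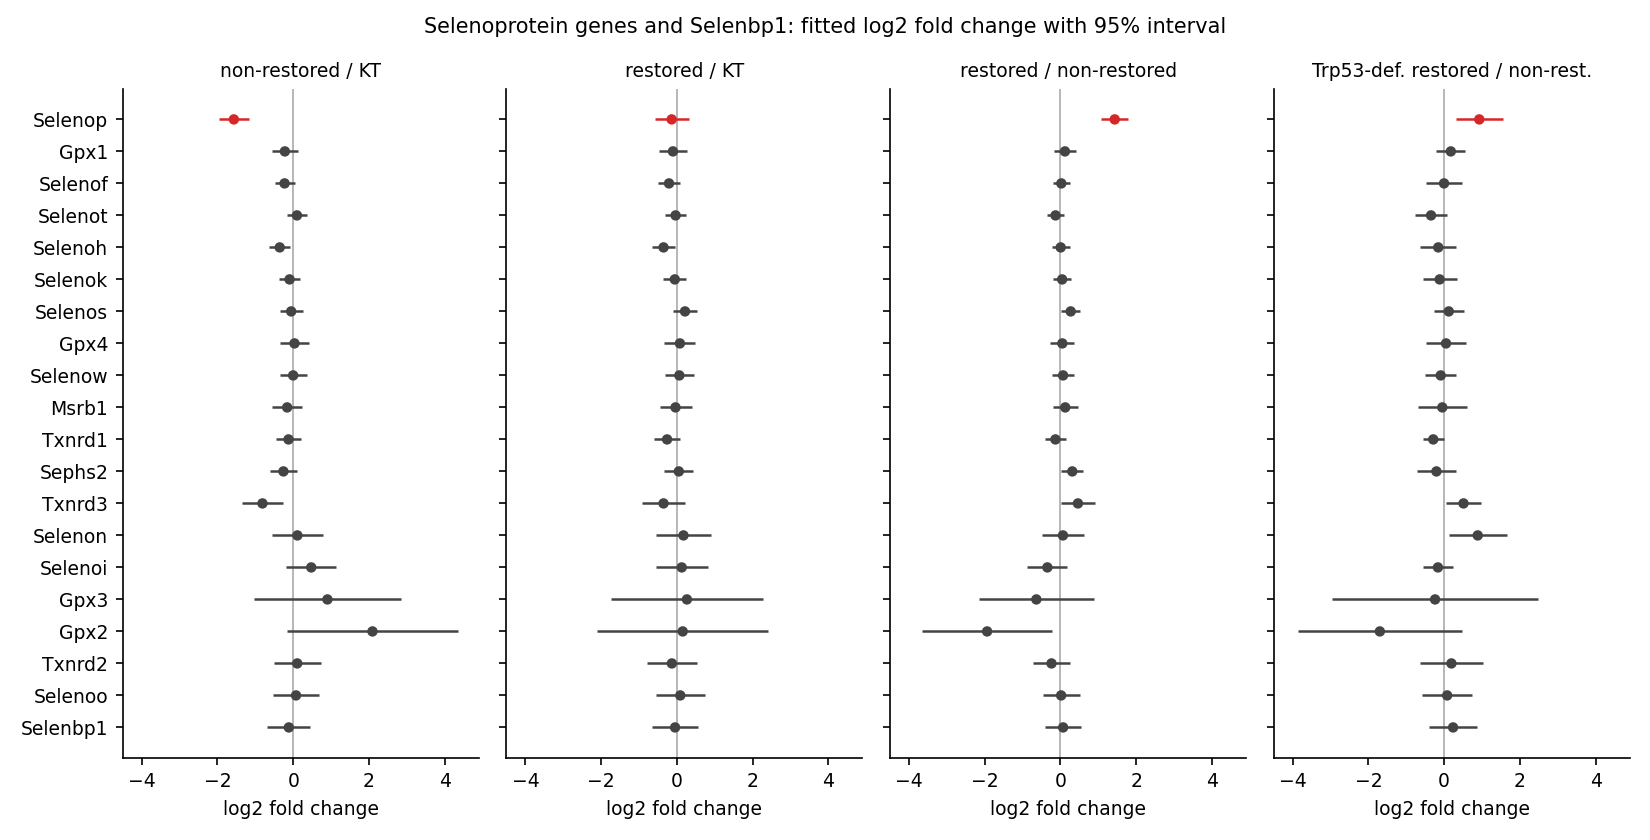
Log2 fold changes with 95% intervals from the edgeR fits for the 19 selenoprotein genes tested and Selenbp1 in 4 comparisons, with 0 as no difference. Selenop lies at 1.43 where restored tumors are set over non-restored ones, at -1.57 for non-restored against KT, at -0.14 for restored against KT and at 0.93 for the Trp53-deficient comparison, and most other genes lie near 0.

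Summed on the TPM scale, the 24 selenoprotein mRNAs had their lowest mean in the non-restored tumors with wild-type Trp53. Their total was 2463 ± 237 TPM in KT, 2120 ± 179 in non-restored and 2426 ± 207 in restored tumors, and 2328 ± 158 and 2375 ± 180 TPM in the Trp53-deficient non-restored and restored ones. Without Selenop the same totals were 1787, 1864, 1785, 2129 and 2000 TPM. Selenop made up 27.2% ± 4.18 of the total in KT, 12.1% ± 3.37 in non-restored and 26.4% ± 2.77 in restored tumors. Its share was 8.55% ± 3.45 and 15.9% ± 2.51 in the Trp53-deficient non-restored and restored tumors.

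By TPM, Selenop was first or second among the selenoprotein genes in every KT and restored library, and first in 3 of 4 and 6 of 7 of them. It ranked 3 to 6 in the non-restored libraries, 3 to 8 in the Trp53-deficient non-restored animals and 2 to 3 in the Trp53-deficient restored libraries. Gpx1 was first in the remaining restored library and in every Trp53-deficient one, with mean levels of 499 to 659 TPM by group. When each mRNA was weighted by its selenocysteine codons, Selenop held 78.6% of them in KT, 56.8% in non-restored and 78.1% in restored tumors. Without Trp53 it held 46.6% before and 65.1% after restoration. This weighting counts codons in mRNA and says nothing of how often they are read as selenocysteine.

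**Figure D4:**
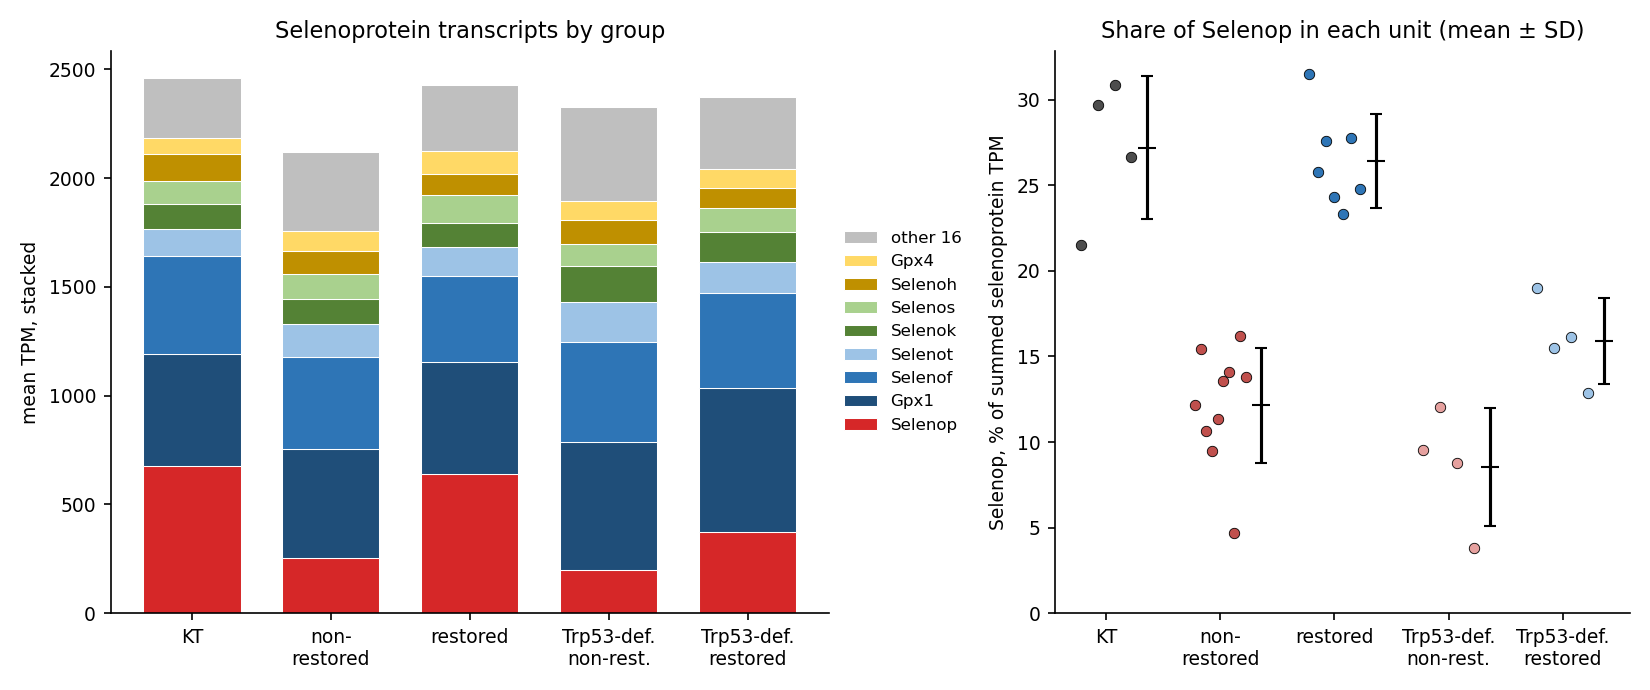
Mean TPM of the selenoprotein mRNAs stacked by gene in each group, and the share of Selenop in their sum (percent) for each library or animal. The share is 21.5 to 30.9% in KT, 4.67 to 16.2% in non-restored and 23.3 to 31.5% in restored tumors.

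The list of selenium uptake and selenocysteine synthesis held 12 genes, all of them tested. With all libraries, edgeR called 0 in any of the 8 comparisons. At an unadjusted p under 0.05 in edgeR there were 2 in non-restored against KT, beside 20.8% of all genes, and 1 in restored against KT, beside 10.5%. Between the Trp53 states there were 4 in non-restored tumors, beside 17.7%, and 3 in restored tumors, beside 15.5%. In the Trp53-deficient restored against non-restored tumors there were 0, beside 5.98%. DESeq2 called 1 in non-restored against KT (Lrp8), beside 8.57% of all genes. It also called 1 between the Trp53 states of non-restored tumors (Lrp2), beside 3.39%, and 2 between those of restored tumors (Sepsecs and Rpl30), beside 1.58%. Without non-restored replicate 8, edgeR called 4 between the Trp53 states of non-restored tumors (Lrp2, Sepsecs, Secisbp2l and Rpl30), beside 10.8%. Lrp2, a receptor for Selenop in kidney, was at 897 CPM in non-restored and 1239 CPM in KT tumors (-0.46, adjusted p = 0.669). Lrp8, the receptor known from brain and testis, was at 4.24 and 0.614 CPM (2.61, adjusted p = 0.0836), the KT level being near that of 1 count. Scly, the lyase that frees selenium from selenocysteine, was at 3.23 and 6.86 CPM (-1.07, adjusted p = 0.0909).

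Among 13 relatives and partners without selenocysteine, 11 were tested and edgeR called 1, in non-restored against KT, beside 5.86% of all genes. This was Txnip, an inhibitor of thioredoxin, at 340 ± 80.6 CPM in non-restored and 628 ± 341 CPM in KT tumors (-0.88, SE 0.232, edgeR adjusted p = 0.0263). The call was lost in 8 of the 29 other settings and sample sets, among them without KT replicate 1 (-0.43, adjusted p = 0.331), without KT replicate 4 (-0.93, adjusted p = 0.0528) and with female libraries only (-0.30, adjusted p = 0.693). DESeq2 called Txnip as well, beside 8.57% of all genes, and between the Trp53 states of non-restored tumors it called Gpx8 and Txn1, beside 3.39%. Without non-restored replicate 8, edgeR called 3 in that comparison (Gpx8, Txn1 and Txnip), beside 10.8%. Of the 6 factors named for Selenop expression in liver, 5 were tested and 0 were called by edgeR in any comparison with all libraries. Foxo3 was called between the Trp53 states of non-restored tumors by DESeq2 (1 of 5, beside 3.39%) and by edgeR without non-restored replicate 8 (1 of 5, beside 10.8%). Foxo1 was the 1 with an unadjusted p under 0.05 in non-restored against KT, at 152 CPM in non-restored and 190 CPM in KT tumors (-0.32, edgeR adjusted p = 0.126).

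Over the 29 libraries and animals, 4 of the 5 genes whose log2 CPM was most like that of Selenop among 12635 ranked were Ccdc152 (Pearson r 0.942), Cat (0.916), Slc31a1 (0.913) and Sh3bgrl (0.908). With the group means removed from both genes, r was 0.818, 0.840, 0.684 and 0.879. All points share their libraries and depth, and the ranking covers all 5 groups, so the values describe these libraries. Cat encodes catalase, which breaks down hydrogen peroxide, and had means of 912, 368 and 715 CPM in KT, non-restored and restored tumors, and 191 and 347 CPM in the non-restored and restored tumors that lacked Trp53. Sh3bgrl had 353, 240.1, 362, 183 and 297 CPM in the same order. The members other than Selenop had r between -0.16 and 0.27, apart from Selenom, which was not ranked. With the group means removed their r ran from -0.24 for Gpx1 to 0.67 for Gpx3, with Txnrd2 at 0.43.

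**Figure D5:**
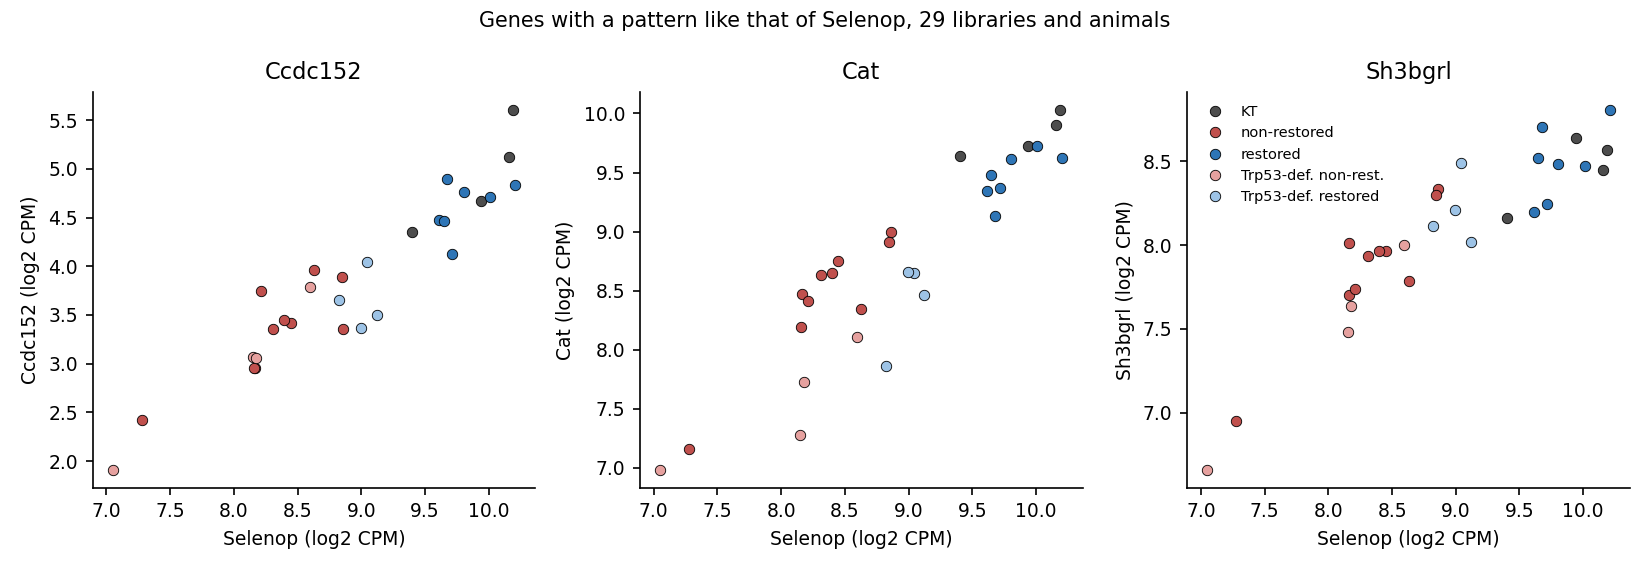
Log2 CPM of Ccdc152, Cat and Sh3bgrl against that of Selenop in the 29 libraries and animals, marked by group. The points follow Selenop with r of 0.942, 0.916 and 0.908, and the KT and restored points lie at the upper end of the Selenop axis, while in Sh3bgrl they overlap the other groups.

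Ccdc152 lies on the opposite strand (chr15:3280070-3303526) and overlaps the 3′ end of Selenop by 439 bases. The sources used here do not give how strand was handled in counting. Expected counts of the 2 genes had complementary fractions, such as 985.91 and 29.09 in KT replicate 1. Reads in the overlap were thus divided between them, and which gene such a read came from is not known. The counts of Ccdc152 were 1.89 to 4.37% of those of Selenop, and its likeness is not independent of Selenop. Gpx4 is matched over 762 bases at 100% identity by the pseudogene Gpx4-ps2, which held 4497 counts in all libraries beside 4482 for Gpx4, so the Gpx4 level is uncertain. Selenbp1 is 99.3% identical to Selenbp2 over 1712 bases, with 48366 counts against 286.

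Markers of other cells were compared with the Selenop levels. Macrophages are a known site of Selenop expression. Of 12 macrophage markers 11 were listed, and their sum was 13 to 18 CPM in KT, 10.7 to 153 in non-restored and 18.9 to 297 in restored tumors, and 19.5 to 38.7 and 10.6 to 46.9 CPM in the Trp53-deficient ones. Among them, C1qa, C1qb and C1qc were at 0 to 1.30 CPM in every library or animal. The 6 macrophage markers tested with wild-type Trp53 had a median log2 fold change of 0.92 in restored against non-restored tumors. It was 1.58 in non-restored against KT and 1.89 in restored against KT. In the Trp53-deficient restored against non-restored tumors 4 were tested, with a median of -0.23. Fibroblast markers summed to 15.1 to 83.0 CPM in KT, 6.58 to 423 in non-restored and 27.2 to 260 in restored tumors, and endothelial markers to 9.07 to 18.2, 1.59 to 129 and 2.96 to 74.7 CPM. No macrophage, fibroblast or endothelial marker was called in any of the 8 comparisons by edgeR, and with a summed fibroblast and endothelial level as covariate, chosen after the data were seen, Selenop was at -1.87 in non-restored against KT.

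Markers of alveolar type II cells, the surfactant-producing cells of the lung, had lower summed medians in non-restored than restored tumors in both Trp53 states. Their 9 genes summed to 57038 to 116534 CPM in KT, 6460 to 82400 in non-restored and 47104 to 138577 in restored tumors. In the Trp53-deficient tumors they summed to 8220 to 36531 CPM without and 37815 to 58660 CPM with restoration. The medians were 97622.9 CPM in KT, 57984.4 in non-restored and 112029 in restored tumors. Without Trp53 they were 25890.3 CPM in non-restored and 50230.5 in restored tumors. Their order differed from that of the Selenop means, with restored above KT and non-restored above Trp53-deficient restored tumors. Of the 9, edgeR called Lyz2 alone, lower in non-restored than KT (1 of 9, beside 5.86% of all genes) and higher in restored than non-restored tumors (1 of 9, beside 1.87%). Summed levels of 4 airway markers had medians of 192 CPM in KT, 73.2 in non-restored and 190 in restored tumors, with ranges of 63.7 to 263, 16.6 to 263 and 13.6 to 432 CPM. In the Trp53-deficient non-restored and restored tumors the airway medians were 72.0 and 149 CPM, with ranges of 35.0 to 98.1 and 60.6 to 228 CPM. The 5 airway medians had the same order as the Selenop means, the airway ranges overlapped, and no airway marker was called by edgeR. The part of either marker list in the Selenop difference was not tested.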

How the data were processed

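Neoplastic cells were sorted as tdTomato-positive after exclusion of hematopoietic and endothelial cells, and ribosomal RNA-depleted libraries were sequenced. The authors aligned reads to mm10 with STAR 2.6.1d and deposited, for each library, expected counts and TPM from RSEM 1.2.30. They also deposited a table of counts scaled with DESeq2 1.26.0, a signal used here as an alternative level, and 4 tables of their own comparisons (fold changes and p-values), which were not used. No column of other samples was present. On average 5.57% of the expected counts of a library, those of 0 included, were not whole. Expected counts were rounded, filtered with filterByExpr, scaled by TMM and tested with edgeR 4.0.16 (quasi-likelihood F test, robust) in R 4.3.3. The libraries with wild-type Trp53 were fitted together as 3 groups, the Trp53-deficient animals in a fit of their own, and comparisons between Trp53 states over the 25 Lkb1XTR libraries and animals. Benjamini-Hochberg adjustment covered every gene of a fit, calls used 0.05, and intervals are 95%. The fit with wild-type Trp53 and the fit of the Trp53-deficient animals were tested on simulated data, each for restored against non-restored. The fits between Trp53 states and between arms were not. Exact two-sided permutation tests used log2 CPM with a prior count of 2. Alternatives used DESeq2 1.42.0, limma 3.58.1 on log2(TPM + 1), other filters, scalings, covariates and sample sets. No 2 libraries of a group agreed within counting noise. Genes named are the members, genes of the lists and the 5 genes most like Selenop, 1 of which is not reported here. The members and lists were chosen with earlier results of these data known.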

Additional observations from a re-analysis of the deposited data

Results flagged for a closer look

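A member's level was set aside for a closer look when 1 library stood far from the rest of its group by Dixon's criterion, which chance meets in about 1 of 20 groups. Of 47 member and group pairs tested, 3 met it. Selenbp1 was at 587 CPM in restored replicate 5, while the other 6 restored libraries had at most 507 CPM. Gpx3 was at 87.2 CPM in non-restored replicate 10, a vehicle library, where the next highest of the 10 had 44.3 CPM and the lowest 0.454 CPM. Gpx4 was at 58.5 CPM in Trp53-deficient non-restored animal 3, where the other 3 animals had 36.3 to 39.8 CPM. Selenop had no such library in any group.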

How the results depend on the processing

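Selenop kept its direction and its side of the threshold in non-restored against KT under all alternatives tried, from -2.00 with female libraries only to -1.43 with limma on log2(TPM + 1), with an adjusted p of at most 0.0124, and from -1.70 to -1.48 with 1 library left out. Restored over non-restored ran from 1.35 to 1.65, restored against KT from -0.39 to -0.03, and Trp53-deficient restored over non-restored from 0.82 to 1.33 (adjusted p from 0.169 to 0.832), and from 0.67 to 1.15 with 1 library or animal left out (adjusted p from 0.413 to 0.999).

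Between the Trp53 states of restored tumors, Selenop passed the threshold with DESeq2 (-0.82, adjusted p = 0.0487), with only the 2 groups in the fit (-0.82, 0.0163) and with the stromal marker covariate (-0.78, 0.0246), and ran from -0.86 to -0.76 with 1 library left out. The difference between the non-restored arms turned sign with limma on log2(TPM + 1) (-0.0391) and with females only (-0.32), and without replicate 9 (-0.0168) or replicate 2 (-0.00768), and ran from -0.0168 to 0.39 with 1 library left out. The count of selenoproteins called in non-restored against KT rose from 1 to 2 with all 5 groups or only the 2 groups in the fit, to 5 with the stromal covariate, where 15.4% of all genes were called, and was 1 to 2 with 1 library left out. The stromal covariate and the summing of near-identical copies were chosen after seeing the data. The causes were not tested.

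The number of all genes called depended on the setting. Over the settings it ran from 50 to 555 for restored against non-restored (236 as reported), 132 to 1951 for non-restored against KT (741), 10 to 325 for restored against KT (58), 0 to 23 for the Trp53-deficient comparison (0), 38 to 382 between Trp53 states of restored tumors (51) and 0 to 12 between arms (1). Between Trp53 states of non-restored tumors it ran from 24 to 726 (80 as reported), and from 26 to 1448 with 1 library or animal left out. It was highest without non-restored replicate 8, where Selenop was still not called.

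Replicate numbers are shared across groups, and 6 of 15 pairs of same-numbered libraries correlated above 0.1 (range -0.05 to 0.50). The highest was replicate 4 of the non-restored and restored groups. Pairs with different numbers were not compared, so these values cannot show whether the numbers mark a pairing. The main fits used no pairing. With the replicate block Selenop was at 1.45, -1.52 (adjusted p = 0.000261), -0.07 and 0.39 in restored against non-restored, non-restored against KT, restored against KT and between arms. The block gave 270, 705, 67 and 2 calls over all genes in the same order.

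Depth limited the low members: Selenom lay at or under 3 counts in most libraries, and Txnrd2 at a few CPM. With 4 animals against 4, the SE of the Selenop log2 fold change was 0.278. Limits from counts cover counting error only, while the intervals of the fold changes also hold the spread between libraries or animals.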
